A study of Rattus norvegicus with 20 samples.

Results

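The genes described are those of heterotrimeric G proteins and of the Rgs family, the switches that carry signals from membrane receptors into the cell and the proteins that turn these switches off. All symbols of the count table that name a G protein alpha, beta or gamma subunit or a numbered Rgs gene were taken, where at least 10 counts were present in at least 4 of the 20 libraries. This gave 43 of 45 such symbols, out of 17296 symbols in the table, namely 13 alpha, 5 beta and 8 gamma subunits and 17 Rgs genes. The 2 symbols left out, Gng11 and Rgs21, had 1 count each over all libraries. The rule used only the symbol and the number of libraries with at least 10 counts, not any difference between groups. A gene with few counts in some of the groups can therefore pass it.

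RNA came from the nucleus accumbens, the ventral part of the striatum, of male Sprague-Dawley wild-type rats of 7 to 9 weeks, all of which took cocaine by self-administration. Their drinking bottles held both antibiotics and short-chain fatty acids (Abx_SCFA, n = 5), the fatty acids without antibiotics (SCFA, n = 6), antibiotics only (Abx, n = 4) or plain water (H2O, n = 5). Antibiotics deplete gut bacteria, and short-chain fatty acids are products of bacterial fermentation, so that the design asks what microbial depletion does, what the fatty acids do, and what they do in depleted rats. The labels name neither the antibiotics nor the fatty acids and no doses, rats shared cages in pairs, and no group without cocaine is among the samples used here.

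A heterotrimeric G protein consists of an alpha subunit, which binds guanine nucleotides, and a tight dimer of a beta and a gamma subunit. A receptor loads the alpha subunit with GTP, both parts then act on enzymes and channels, and Rgs proteins end the signal by speeding the hydrolysis of GTP. In the medium spiny neurons that make up most of the striatum, the receptors encoded by Drd1 and Adora2a stimulate adenylyl cyclase through the olfactory-type alpha subunit Gnal with the gamma subunit Gng7, and a striatal form of Rgs9, bound to Gnb5, shortens the responses of Drd2 and of opioid receptors. In most other neurons the stimulatory alpha subunit is Gnas.

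Promoter windows are shown for 4 of the genes whose levels varied with the cell type markers described below. Those of other such genes, among them Gnas and Gnal, are not shown. Gng7 and Rgs9 were lower and Gng2 higher in libraries with more cortical excitatory neuron markers, and Gna12 correlated with oligodendrocyte markers. Gng7 and Rgs9 also correlated with medium spiny neuron markers. In the 9 libraries of 1 rat number series, and with group means removed, their r was similar but missed the adjusted threshold. Each window holds 250 bases before and 50 bases after the annotated start, 5′ to 3′ on the strand of the gene, from RefSeq on the rat assembly GRCr8. Gng7 lies at chr7:9365139-9365438 on the plus strand, Rgs9 at chr10:94770338-94770637 on the minus strand, Gng2 at chr15:4365551-4365850 on the plus strand and Gna12 at chr12:18919379-18919678 on the plus strand. Capitals mark matches to the GC box GGGCGG and to the E-box CAGCTG on either strand, and overlapping matches are joined.
Gng7: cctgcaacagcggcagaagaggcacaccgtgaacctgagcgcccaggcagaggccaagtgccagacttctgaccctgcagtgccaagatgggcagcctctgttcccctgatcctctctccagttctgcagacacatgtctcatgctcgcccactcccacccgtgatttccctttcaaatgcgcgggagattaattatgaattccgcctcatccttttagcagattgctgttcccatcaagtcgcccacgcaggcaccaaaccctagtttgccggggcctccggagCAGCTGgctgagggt
Rgs9: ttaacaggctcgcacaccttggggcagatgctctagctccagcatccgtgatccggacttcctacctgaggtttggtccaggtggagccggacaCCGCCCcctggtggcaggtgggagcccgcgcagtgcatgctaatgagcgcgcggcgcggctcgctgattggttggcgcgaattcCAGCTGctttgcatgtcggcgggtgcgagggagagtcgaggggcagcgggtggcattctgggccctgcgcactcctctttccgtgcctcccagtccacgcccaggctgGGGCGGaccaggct
Gng2: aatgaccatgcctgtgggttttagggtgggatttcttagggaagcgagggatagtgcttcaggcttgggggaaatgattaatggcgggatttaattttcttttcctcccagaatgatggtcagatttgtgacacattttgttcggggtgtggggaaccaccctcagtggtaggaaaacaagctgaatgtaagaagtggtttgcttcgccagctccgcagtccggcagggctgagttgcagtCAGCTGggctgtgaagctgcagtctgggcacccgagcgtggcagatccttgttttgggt
Gna12: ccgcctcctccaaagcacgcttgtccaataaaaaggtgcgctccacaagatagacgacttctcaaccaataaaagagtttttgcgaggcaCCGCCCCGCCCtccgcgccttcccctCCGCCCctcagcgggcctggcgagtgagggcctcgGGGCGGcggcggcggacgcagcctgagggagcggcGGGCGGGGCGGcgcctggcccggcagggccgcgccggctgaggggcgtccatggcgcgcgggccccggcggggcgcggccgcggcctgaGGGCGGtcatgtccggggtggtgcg
The Gna12 window held 7 GC boxes and the Rgs9 window 2, while the Gng7 and Gng2 windows held none. Rgs9, Gng7 and Gng2 each had 1 E-box.

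Of the 43 genes, 37 had a window in the RefSeq table, and Gnai2, Gnai3, Gnaz, Gnb3, Gng8 and Rgs20 did not. Their median GC content was 63.3%, against 51.7% over all 33469 windows. The GC box was present in 22 of the 37 windows (59.5%), against 33.1% of all windows, and the E-box in 12 (32.4%), against 15.1%. Of the other motifs searched on both strands, the TATA box core TATAAA was present in 5 windows (13.5%), against 14.2% of all. The cAMP response element half-site TGACG was in 10 (27%), against 21.2%, and the Sox core ACAAAG in 2 (5.41%), against 18.8%. A match describes the letters only.

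Library totals ran from 18375538 to 25731636 counts in Abx_SCFA, from 17946132 to 25601695 in SCFA, from 17525358 to 25366231 in Abx and from 18223766 to 22235777 in H2O. Levels are CPM values, with library sizes corrected by TMM. They compare libraries for 1 gene and not genes with each other, since transcript lengths were not used. A count of 0 allows up to 3 counts, or 0.115 to 0.171 CPM depending on the library. Medium spiny neuron markers were abundant throughout, their summed level running from 7304 to 8888 CPM in Abx_SCFA, 4121 to 8800 in SCFA, 6579 to 9521 in Abx and 6990 to 9564 in H2O, with SCFA replicates 2 and 5 at the low end. Oligodendrocyte markers summed to 11290 to 20100 CPM in Abx_SCFA, 6151 to 23670 in SCFA, 6535 to 13790 in Abx and 14560 to 22080 in H2O.

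Markers of cortical excitatory neurons, which the accumbens should hold few of, differed widely between libraries. Of 14 such markers 13 were in the table, and their mean log2 CPM ran from 3.27 to 4.34 in Abx_SCFA, 2.84 to 5.93 in SCFA, 2.61 to 4.63 in Abx and 0.96 to 3.90 in H2O. Their summed level ran from 352 to 659 CPM in Abx_SCFA, 249 to 1780 in SCFA, 225 to 874 in Abx and 168 to 506 in H2O. Slc17a7, which loads glutamate into vesicles of cortical neurons, was at 132, 194, 155, 339 and 216 CPM in Abx_SCFA, at 74.0 to 1059 with a median of 268 in SCFA, at 506, 43.7, 183 and 458 in Abx, and at 3.30, 32.8, 3.09, 14.6 and 252 in H2O. Lamp5 did not vary in this way, at 102 to 126 CPM in Abx_SCFA, 65.8 to 126 in SCFA, 100.3 to 130 in Abx and 101.5 to 132 in H2O, and it made up most of the lowest sums. The other 12 markers summed to 242 to 533 CPM in Abx_SCFA, 155 to 1665 in SCFA, 115 to 774 in Abx and 53.4 to 404.3 in H2O. Among them Rorb varied less than Slc17a7, at 11.9 to 12.6 CPM in Abx_SCFA, 12.9 to 21.4 in SCFA, 10.4 to 16.0 in Abx and 10.4 to 13.4 in H2O. Fezf2, Cux2 and Bhlhe22 also varied less than Slc17a7, and all of these were highest in SCFA replicate 5. SCFA replicates 2 and 5 were highest in the summed markers and H2O replicates 1 and 3 lowest, and Neurod1 was at 0 in 2 H2O libraries. In bulk tissue, fewer cells of a type and less RNA per cell cannot be told apart.

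None of the 43 genes passed the adjusted threshold of 0.05 in any of the 6 contrasts, by edgeR's quasi-likelihood test with Benjamini-Hochberg adjustment over all 12846 genes tested, and DESeq2 and limma-voom also called 0 of them. The same threshold called 0% of all genes tested in each contrast. At an unadjusted p below 0.05 the numbers were 7 of 43 in SCFA vs H2O, where 13.8% of all genes reached it, and 6 in Abx vs H2O, with 8.79% of all genes. There was 1 gene in Abx_SCFA vs H2O, with 5.56% of all genes, 1 in Abx_SCFA vs Abx, with 3.19%, 3 in Abx_SCFA vs SCFA, with 6.78%, and 5 in the interaction, with 7.85%. The counts lay close to these shares or a few genes above them, and nothing particular to the 43 genes is read from them. No gene had all libraries of 1 group above or below all of the other in any of the 5 pairs of groups, which held for between 0.249% and 1.57% of all genes tested in each direction. The values below therefore describe these libraries, and for no gene is a difference between groups established.

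**Figure D1:**
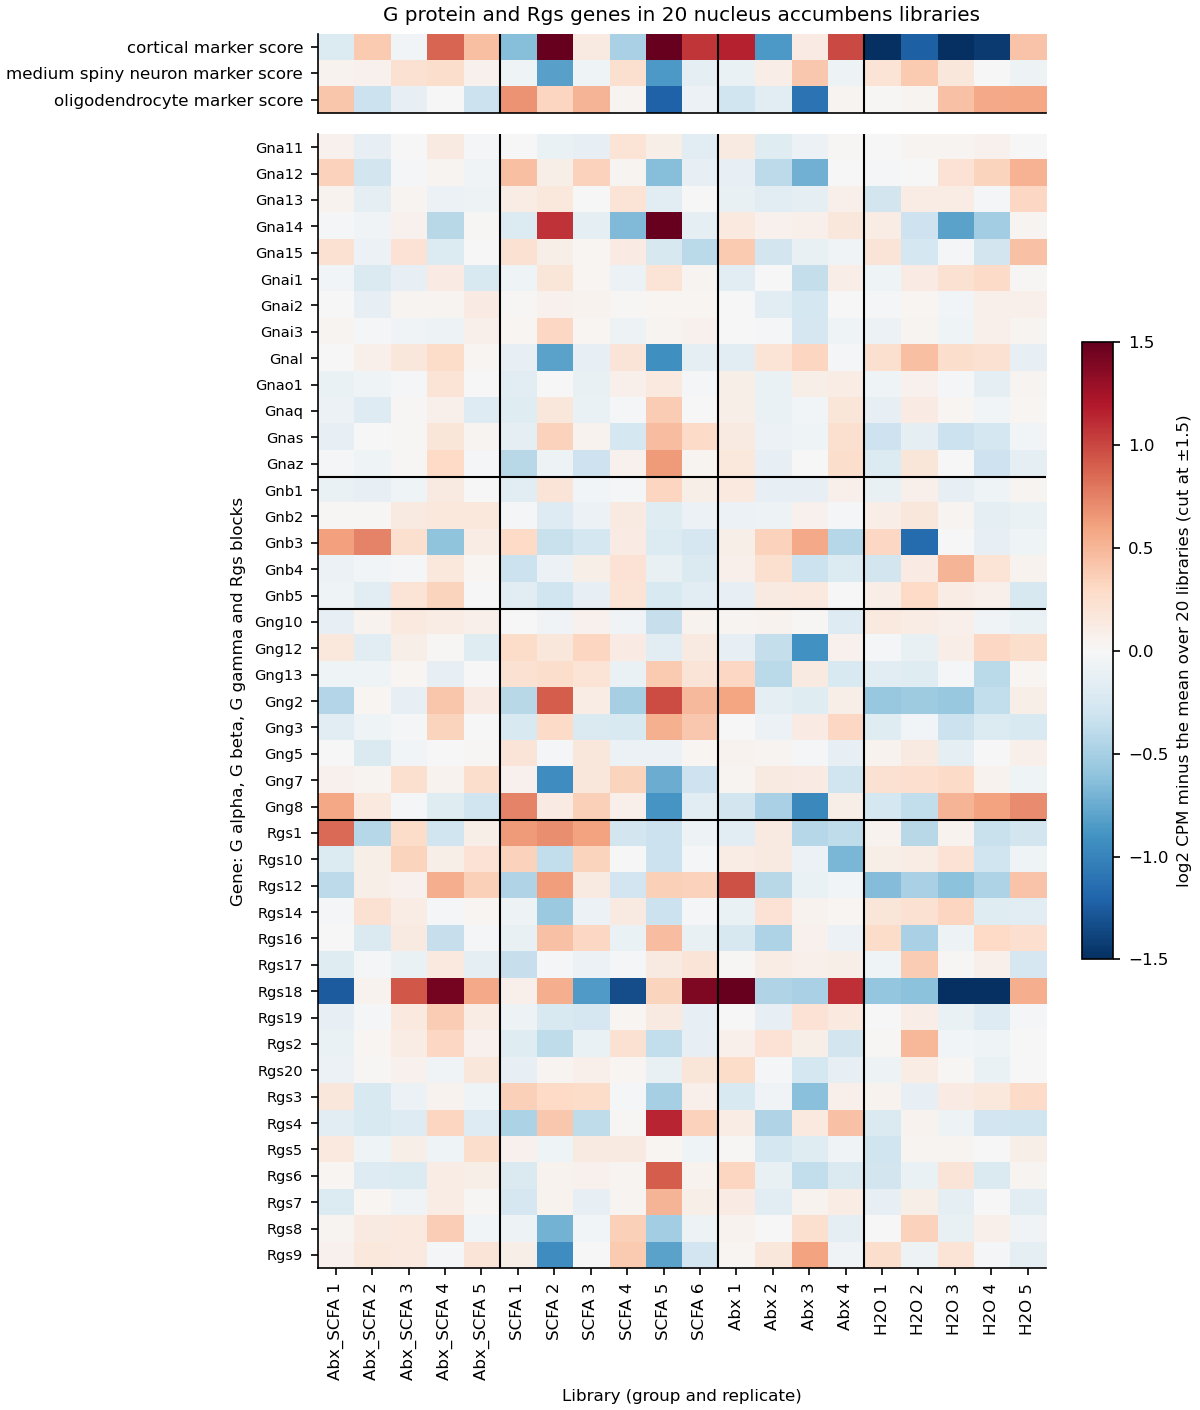
Level of each of the 43 genes (one per line, ordered as alpha, beta, gamma and Rgs) in each of the 20 libraries (columns, Abx_SCFA, SCFA, Abx and H2O from left to right), as log2 CPM minus the gene's mean over the libraries, with colours ending at 1.5 in both directions. SCFA replicates 2 and 5 stand out, with Gnal, Gng7 and Rgs9 low and Gng2 and Gnas high.

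**Figure D2:**
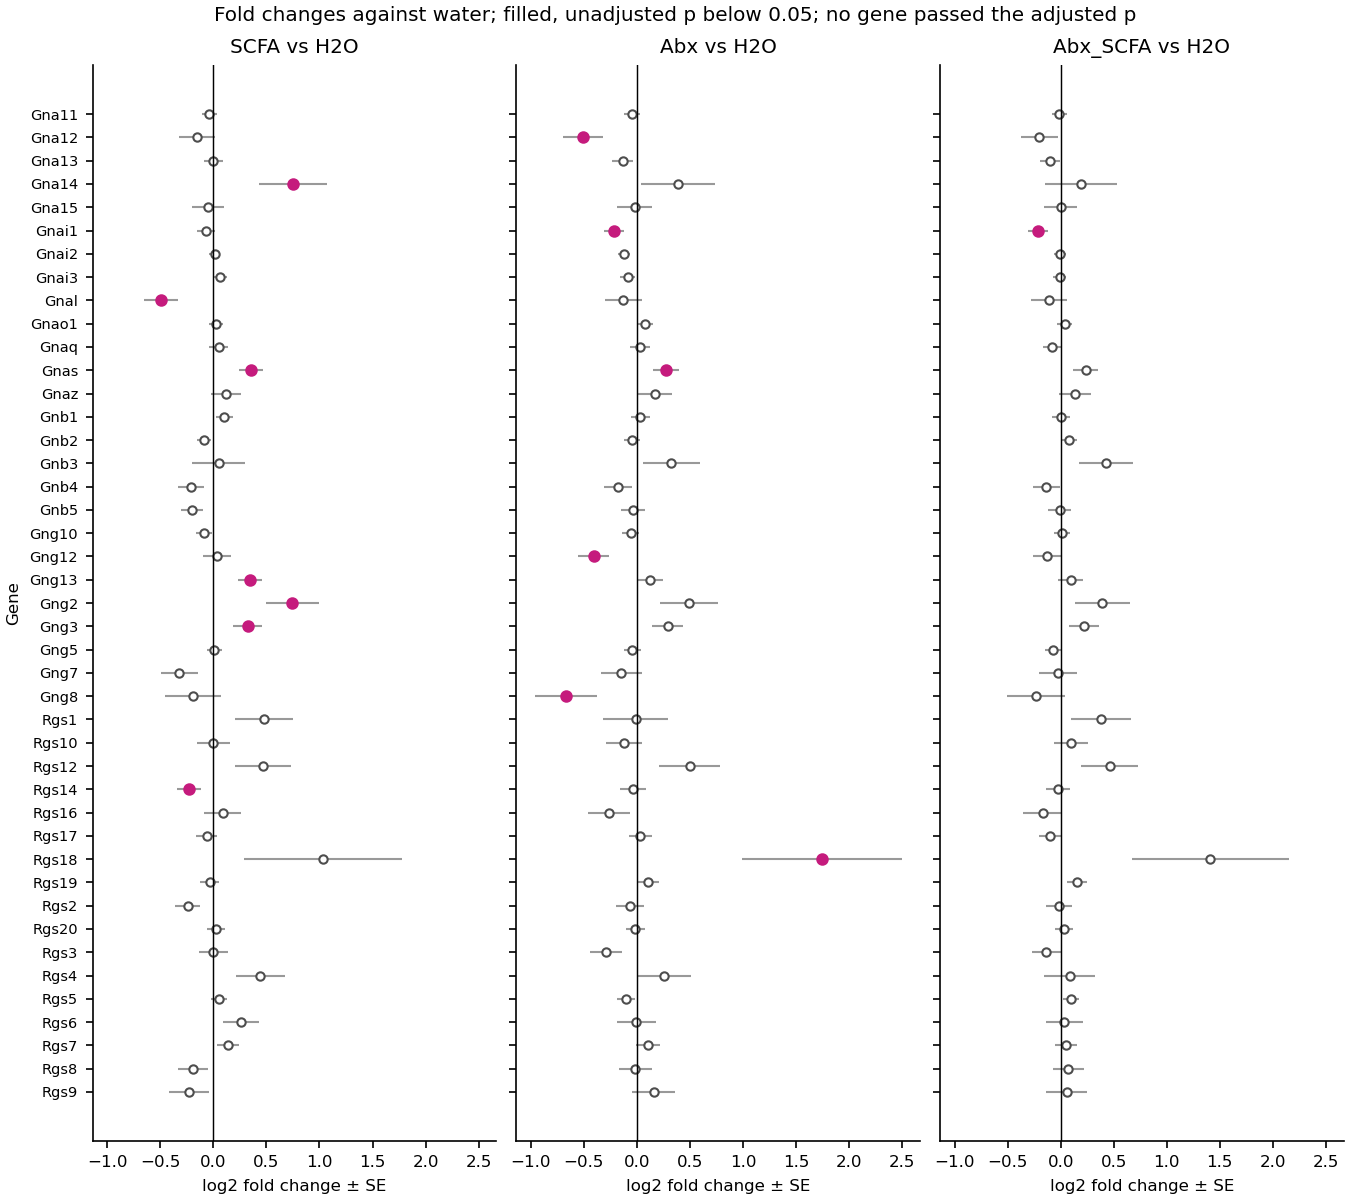
Log2 fold change against H2O with its standard error for each of the 43 genes in SCFA, Abx and Abx_SCFA. Filled points mark an unadjusted p below 0.05, reached by 7 genes in SCFA, 6 in Abx and 1 in Abx_SCFA, and no gene passed the adjusted threshold.

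SCFA against H2O addresses the effect of fatty acids on rats that keep their bacteria. At an unadjusted p below 0.05 there were 5 genes higher and 2 lower, against 8.2% and 5.58% of all genes tested. The 2 stimulatory alpha subunits lay in opposite directions, with Gnas higher and Gnal lower in SCFA on average. Gnas, the stimulatory alpha subunit of most cells, ran from 402.9 to 667 CPM with a median of 546 in SCFA, against 392, 441, 387, 402.998 and 471 in H2O. SCFA replicate 5 was highest and SCFA replicates 1 and 4 lay within the H2O range, so that the groups overlapped. On the log2 scale the fold change was 0.36 ± 0.11 (SE, adjusted p = 0.247 by edgeR). Gnal, which couples dopamine and adenosine receptors to adenylyl cyclase, ran from 272.5 to 589 CPM with a median of 467 in SCFA, against 605, 704, 615, 603 and 473 in H2O. SCFA replicates 2 and 5 were far below the rest, at 294 and 272.5, and SCFA replicate 4 was the only one inside the H2O range. Its log2 fold change was -0.49 ± 0.16 (SE, adjusted p = 0.247 by edgeR).

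Gng13, a gamma subunit known best from taste and olfactory signalling, ran from 12.2 to 17.1 CPM with a median of 15.2 in SCFA, against 11.7, 11.5, 12.9, 9.82 and 13.3 in H2O. All SCFA libraries but replicate 4 were above every H2O library. For Gng13 the log2 fold change was 0.35 ± 0.11 (SE, adjusted p = 0.247 by edgeR). Gng2, a gamma subunit common in brain, averaged 170 ± 71.7 CPM in SCFA and 102 ± 21.9 in H2O (SD, n = 6 and 5). The neuronal gamma subunit Gng3 averaged 82.2 ± 20.2 CPM in SCFA and 65.7 ± 4.80 in H2O. Gna14, an alpha subunit of the Gq class, averaged 3.85 ± 2.54 CPM in SCFA and 2.29 ± 0.61 in H2O. Their log2 fold changes were 0.74, 0.32 and 0.75, with adjusted p of 0.25, 0.297 and 0.302 by edgeR. For Gng2, Gng3 and Gna14 alike, the SD within SCFA was larger than the difference of the means.

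Gng7, the gamma partner of Gnal, ran from 919 to 2199 CPM with a median of 1619 in SCFA, against 2048, 2090, 2143, 1818 and 1673 in H2O. SCFA replicates 2 and 5 stood at 919 and 1046, and SCFA replicate 4 was above every H2O library. Its log2 fold change was -0.32 ± 0.17 (SE, adjusted p = 0.42). Rgs9 ran from 176 to 441 CPM with a median of 306.3 in SCFA, against 401.5, 318, 385, 330 and 304 in H2O. The same 2 SCFA libraries were lowest, at 176 and 191, and the log2 fold change was -0.23 ± 0.19. Rgs14, which joins Rgs activity to Ras signalling, ran from 86.7 to 140 CPM with a median of 121 in SCFA, against 144, 150, 160, 113 and 115 in H2O, with a log2 fold change of -0.23 ± 0.11 (adjusted p = 0.361). The groups overlapped for all of these genes.

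Rgs2, an inducible brake on Gq signalling, ran from 73.4 to 112 CPM with a median of 85.9 in SCFA, against 97.1, 135, 92.9, 91.6 and 96.1 in H2O. Its log2 fold change was -0.24 ± 0.12 (adjusted p = 0.369), and SCFA replicate 4 alone lay inside the H2O range. Rgs4, abundant in cortical neurons and acting on Gi and Gq, ran from 92.8 to 286 CPM with a median of 148 in SCFA, against 111, 135, 122.9, 106 and 105 in H2O. SCFA replicate 5 alone reached 286, and SCFA replicates 1 and 3 lay below every H2O library. Its log2 fold change was 0.44 ± 0.23 (adjusted p = 0.402). Gnb1, a widely used beta subunit, ran from 401.8 to 567 CPM with a median of 463 in SCFA, against 420, 479, 414.8, 434 and 468 in H2O, a log2 fold change of 0.10 ± 0.081 (adjusted p = 0.618). Rgs5, a marker of pericytes, ran from 51.5 to 59.3 CPM with a median of 55.6 in SCFA, against 44.0, 55.6, 55.6, 54.2 and 57.4 in H2O, a log2 fold change of 0.055 ± 0.076 (adjusted p = 0.81). Neither Gnb1 nor Rgs5 separated the groups.

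Over all 43 genes, 24 were higher on average in SCFA than in H2O, against 48.9% of all genes tested, and the median log2 fold change was 0.011, against -0.0030. With SCFA replicates 2 and 5 left out, the log2 fold change was 0.21 for Gnas, -0.26 for Gnal, 0.28 for Gng13 and 0.35 for Gng2 (adjusted p = 0.864 for each). The number of genes at an unadjusted p below 0.05 was then 3, with 4.97% of all genes tested. It was 15 with SCFA replicate 4 left out and 4 with SCFA replicate 2 left out, with 17.5% and 9.98% of all genes, so that the share of all genes moved in the same direction. Among the genes named above for SCFA against H2O, the estimates for Gna14 and Rgs9 without both SCFA libraries changed sign, to -0.017 and 0.023. Signs of the other genes in that fit are not given here. After adding the cortical marker score as a covariate, the values were -0.028 for Gnas, -0.086 for Gnal and -0.16 for Gng2, so that those of Gnas and Gng2 changed sign. All SCFA rats carry numbers of the 4-hundred series and all H2O rats numbers of the 2-hundred or 3-hundred series. Number series and fatty acids therefore cannot be told apart here, nor in Abx_SCFA against H2O or Abx, nor in the interaction.

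**Figure D3:**
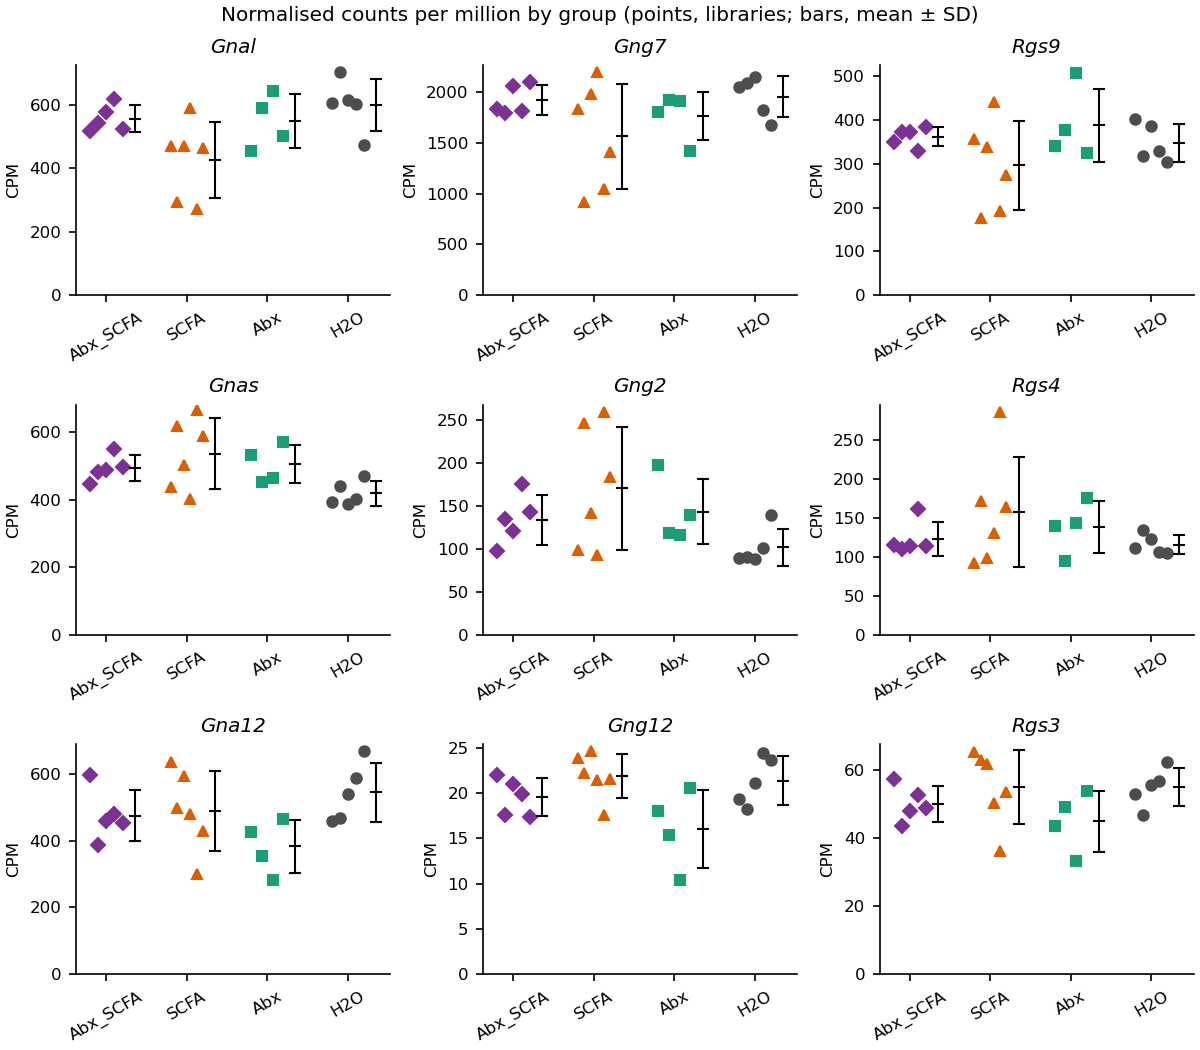
CPM of 9 genes in every library of Abx_SCFA, SCFA, Abx and H2O (points), with group means and SDs (bars). For Gnal, Gng7 and Rgs9 the 2 lowest SCFA points are replicates 2 and 5, which are the highest SCFA points for Gng2. For Gna12 and Gng12 the lowest of all points is Abx replicate 3.

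Abx against H2O addresses microbial depletion by itself. At an unadjusted p below 0.05, the 4 genes lower in Abx were Gng12, Gna12, Gng8 and Gnai1, against 5.53% of all genes tested, and the 2 higher were Rgs18 and Gnas, against 3.26%. Gng12, a widely expressed gamma subunit, had 18.01, 15.3, 10.4 and 20.5 CPM in Abx, against 19.4, 18.3, 21.2, 24.5 and 23.7 in H2O. Abx replicate 3 was lowest and Abx replicate 4 lay within the H2O range. For Gng12 the log2 fold change was -0.41 ± 0.15 (SE, adjusted p = 0.563 by edgeR). Gna12, an alpha subunit of the G12 and G13 class, had 427, 355, 283 and 465 CPM in Abx, against 460, 468, 541, 587 and 670 in H2O. Abx replicate 4 overlapped H2O, and the other 3 Abx libraries were below all H2O libraries. The fold change was -0.51 ± 0.19 on the log2 scale (SE, adjusted p = 0.563 by edgeR).

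Rgs18, an Rgs gene of blood cells, was near the detection limit. Its counts were 39, 5, 4 and 22 in Abx, or 1.54, 0.24, 0.23 and 0.87 CPM, against 4, 4, 1, 1 and 12 in H2O, or 0.21, 0.20, 0.055, 0.045 and 0.57 CPM. Abx replicates 1 and 4 were high, the other 2 lay inside the H2O range, and the fitted log2 fold change was 1.74 ± 0.75 (SE, adjusted p = 0.563 by edgeR). Without Abx replicate 1 it was 1.07. Gnas had 533, 454, 465 and 571 CPM in Abx, against the H2O values of 387 to 471 given above, a log2 fold change of 0.27 ± 0.12 (adjusted p = 0.563). Gnai1, an inhibitory alpha subunit, averaged 178 ± 24.5 CPM in Abx and 207.1 ± 21.2 in H2O (SD, n = 4 and 5), a log2 fold change of -0.22 ± 0.098 (adjusted p = 0.563). Gng8, a gamma subunit known from olfactory neurons, averaged 5.51 ± 1.64 CPM in Abx and 8.81 ± 2.89 in H2O, a log2 fold change of -0.67 ± 0.30 (adjusted p = 0.563).

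Gnal had 456, 592, 645 and 503 CPM in Abx, against 473 to 704 in H2O, and Gng7 had 1806, 1917, 1913 and 1422, against 1673 to 2143. Rgs9 had 341, 377, 508 and 324 CPM in Abx, against 304 to 401.5 in H2O. The log2 fold changes were -0.13 ± 0.18, -0.15 ± 0.19 and 0.16 ± 0.21 (adjusted p = 0.848, adjusted p = 0.838 and adjusted p = 0.839), and the groups overlapped for each. Rgs14 had 119, 148, 133 and 131 CPM in Abx, against 113 to 160 in H2O, Rgs2 had 101, 111, 102 and 79.1, against 91.6 to 135, and Rgs4 had 140, 94.3, 144 and 176, against 105 to 135. Gnb1 had 502, 416.4, 416.3 and 478 CPM in Abx, against 414.8 to 479 in H2O, and Rgs5 had 54.4, 44.9, 47.3 and 51.9, against 44.0 to 57.4. None of these genes had an estimate beyond 0.26 in size on the log2 scale.

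Of the 43 genes 17 were higher on average in Abx, against 47.7% of all genes tested, and the median log2 fold change was -0.023, against -0.0083. Only 2 genes were at an unadjusted p below 0.05 without H2O replicate 3, H2O replicate 4 or Abx replicate 3, and 3 without Abx replicate 1, with 6.56%, 5.41%, 4.84% and 6.89% of all genes tested. Without Abx replicate 3 the log2 fold changes of Gng12 and Gna12 were -0.245 and -0.38. Both groups hold rats of the 2-hundred series (2 Abx and 2 H2O) and of the 3-hundred series (2 Abx and 3 H2O), which allowed differences of mean log2 CPM within each. Gna12 differed by -0.52 over all, -0.25 in the 2-hundred and -0.72 in the 3-hundred series, and Gng12 by -0.45 (-0.18 and -0.65 within). Gng8 differed by -0.65 over all, but by -0.065 and -1.05 within the series, and Gnai1 by -0.22, -0.10 and -0.31. Gnas differed by 0.27, 0.24 and 0.30 and Rgs18 by 1.29, 1.30 and 1.22, which are nearly the same values in both series. For Rgs18 this rests on low counts and on 1 high Abx library in each series. That library had 39 counts against 5 in the 2-hundred series and 22 against 4 in the 3-hundred series. The oligodendrocyte marker score moved with Gna12, Gng12 and Gng8, running from 7.87 to 9.02 in Abx and from 9.00 to 9.56 in H2O. With that score as a covariate the log2 fold changes were -0.094 for Gna12, -0.15 for Gng12 and -0.035 for Gng8 (adjusted p = 0.999 for each). That of Gnas was -0.037 (adjusted p = 0.901) when the cortical score was the covariate. Both scores come from the same libraries. The oligodendrocyte score of every Abx library but replicate 4 lay below all H2O libraries, so that group and this score can hardly be told apart. Whether cell content accounts for the values was not tested.

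In Abx_SCFA against H2O, which differ in both treatments, 1 gene was lower and 0 higher at an unadjusted p below 0.05, against 3.46% and 2.09% of all genes tested. Gnai1 had 184, 164, 174, 208 and 163 CPM in Abx_SCFA, against 181, 206.7, 223, 233 and 192 in H2O. The groups overlapped through Abx_SCFA replicates 1 and 4 and H2O replicates 1, 2 and 5. For Gnai1 the log2 fold change was -0.21 ± 0.092 (SE, adjusted p = 0.815 by edgeR). Gnas had 446, 481, 489, 551 and 498 CPM in Abx_SCFA, with only H2O replicate 5 above the lowest of these, and a log2 fold change of 0.24 ± 0.12 (adjusted p = 0.815). Gnal had 518, 542, 577, 620.5 and 523 CPM in Abx_SCFA, a log2 fold change of -0.11 ± 0.17 from H2O (adjusted p = 0.915). Gng7 had 1827, 1796, 2062, 1813 and 2093 CPM, and Rgs9 349, 373, 372, 329 and 383, with log2 fold changes of -0.027 ± 0.18 and 0.055 ± 0.19. All Abx_SCFA values of Gnal, Gng7 and Rgs9 lay inside the H2O range.

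Gnb1 had 423, 417, 434, 498 and 452 CPM in Abx_SCFA, a log2 fold change of 0.0058 ± 0.085 from H2O. Rgs2 had 88.9, 97.5, 103, 118 and 99.9 CPM, Rgs4 116, 110, 114, 162 and 114, and Rgs14 126, 150, 138, 125 and 131. Their log2 fold changes were -0.014 ± 0.12, 0.084 ± 0.24 and -0.024 ± 0.11, so that all 3 had estimates below their own error. Over the 43 genes 23 were higher on average in Abx_SCFA, against 47.6% of all genes tested, and the median was 0.017, against -0.0071. No gene was at an unadjusted p below 0.05 without H2O replicate 3 or 4 or without Abx_SCFA replicate 2, 3 or 5, where 3.26% to 5.56% of all genes tested were. There were 4 without H2O replicate 5 or Abx_SCFA replicate 1, with 9.14% and 6.41% of all genes, and 2 without H2O replicate 1, Abx replicate 2 or 4, SCFA replicate 1, 2, 4 or 5 or Abx_SCFA replicate 4, with 5.34% to 7.25%. The same 5 H2O libraries enter this comparison and both above, and Abx and SCFA each enter other contrasts as well, so that the contrasts are not independent.

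Abx_SCFA against Abx addresses the fatty acids in depleted rats. At an unadjusted p below 0.05 there was 1 gene higher and 0 lower, against 1.85% and 1.34% of all genes tested. Rgs5 had 59.5, 51.8, 57.4, 51.5 and 65.0 CPM in Abx_SCFA, against 54.4, 44.9, 47.3 and 51.9 in Abx. Abx_SCFA replicates 2 and 4 lay below Abx replicates 1 and 4, so that the groups overlapped. For Rgs5 the log2 fold change was 0.20 ± 0.084 (SE, adjusted p = 0.999 by edgeR). The 8 endothelial and pericyte markers summed to 494 to 606 CPM in Abx_SCFA and 387 to 476 in Abx, and their part in the value was not tested. Gnal, Gnas, Gnb1, Gng7, Rgs2, Rgs4, Rgs9 and Rgs14 had log2 fold changes between -0.17 and 0.12, with Gnal at 0.019 ± 0.18, Gnas at -0.036 ± 0.12 and Gng7 at 0.12 ± 0.19. Leaving out Abx replicate 2 or 3 or Abx_SCFA replicate 1 or 5 left 0 genes at an unadjusted p below 0.05, with 1.92% to 3.04% of all genes tested. There were 3 without Abx replicate 4, with 3.25% of all genes, and 2 without Abx replicate 1 or Abx_SCFA replicate 2, with 5.33% and 4.81%. Of the 43 genes 27 were higher on average in Abx_SCFA, against 49.9% of all genes tested, and the median was 0.038, against -0.00034.

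Abx_SCFA and SCFA rats all drank the fatty acids and belong to 1 number series, so that they differ in antibiotics only, as far as the labels say. At an unadjusted p below 0.05 there were 2 genes higher and 1 lower, against 2.72% and 4.06% of all genes tested. Gnb2, a beta subunit, had 395, 395, 429, 435 and 434 CPM in Abx_SCFA, against 340.5 to 427 with a median of 367 in SCFA. SCFA replicate 4 lay above the lowest 2 Abx_SCFA libraries, and the other 5 SCFA libraries lay below all of them. Its log2 fold change was 0.17 ± 0.066 (SE, adjusted p = 0.732 by edgeR). Gnal had 518 to 620.5 CPM in Abx_SCFA, against 272.5 to 589 in SCFA, a log2 fold change of 0.38 ± 0.16 (adjusted p = 0.732 by edgeR). Gng13 had 12.5, 12.5, 13.3, 11.99 and 12.97 CPM in Abx_SCFA, against 12.2 to 17.1 in SCFA, a log2 fold change of -0.25 ± 0.11 (adjusted p = 0.732 by edgeR). Of the SCFA libraries replicate 4 alone lay within the Abx_SCFA range, for both genes.

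Without SCFA replicates 2 and 5 the values were 0.12 for Gnb2, 0.16 for Gnal and -0.18 for Gng13 (adjusted p = 0.98 for each). Gng7, Rgs9 and Rgs2 had log2 fold changes of 0.30 ± 0.17, 0.29 ± 0.19 and 0.23 ± 0.12, and Gnas, Gnb1 and Rgs4 had -0.12 ± 0.11, -0.097 ± 0.081 and -0.36 ± 0.23. Each of these 6 missed the unadjusted level of 0.05. At that level 11 genes stood once SCFA replicate 4 was left out and 1 once replicate 2 was, with 12% and 3.74% of all genes tested. Of the 43 genes 20 were higher on average in Abx_SCFA, against 45.5% of all genes tested, and the median was -0.016, against -0.012.

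The interaction, which is the antibiotic difference among rats on fatty acids less that among rats on water, was below an unadjusted p of 0.05 for 3 genes with a negative and 2 with a positive value, against 5.01% and 2.83% of all genes tested. It was -0.39 ± 0.16 (SE) for Gnas, -0.84 ± 0.37 for Gng2 and -0.37 ± 0.17 for Gng13 on the log2 scale, each with a higher mean in Abx than in H2O and a lower mean in Abx_SCFA than in SCFA. It was positive for Gnb2, at 0.22 ± 0.099, and for Gnal, at 0.51 ± 0.24. The adjusted p values by edgeR ran from 0.622 to 0.626. The rats on fatty acids are all of the 4-hundred number series and the others of the 2-hundred or 3-hundred series. The interaction therefore cannot be told apart from a difference between number series. Gng2 had 96.7, 134, 120, 175 and 142 CPM in Abx_SCFA, 92.99 to 258 with a median of 162 in SCFA, 197, 119, 116 and 140 in Abx, and 88.6, 90.2, 88.4, 101 and 140 in H2O. SCFA replicates 2 and 5 and Abx replicate 1 were its highest libraries, and the 4 groups overlapped. Gng13, given above for the other groups, had 16.3, 9.84, 14.3 and 11.2 CPM in Abx. Without SCFA replicates 2 and 5, 0 of the 5 genes reached an unadjusted p of 0.05. With single libraries left out the count was 1 without Abx replicate 1, SCFA replicate 2 or SCFA replicate 5, with 5.42% to 6.5% of all genes tested. It was 2 or 3 without H2O replicate 1, 2, 3 or 4, Abx replicate 4 or Abx_SCFA replicate 1, 3 or 5, with 6.15% to 7.11% of all genes. Without SCFA replicates 1, 3 and 4 in turn it was 9, 8 and 11, with 11%, 9.62% and 10.8% of all genes. Once the cortical score entered the fit, the Gnas and Gng2 terms were 0.0038 and 0.083. Of the 43 genes 26 had a positive interaction, against 51.8% of all genes tested, and the median was 0.060, against 0.0069.

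Levels of some of the genes varied with the marker content of the libraries, as those of many genes of the table did. Relations with the medium spiny and oligodendrocyte scores were computed after the data were seen. Over the 20 libraries, 17 of the 43 genes correlated with the cortical score at an adjusted p below 0.05 (permutation test, 100000 resamples, Benjamini-Hochberg over 43), 12 positively and 5 negatively. The same level of unadjusted p was reached positively by 13.3% and negatively by 9.07% of 12833 genes tested, the score's own markers left out, and 14 of the 43 genes and 18.5% of all genes passed with adjustment over all of them. Leaving Lamp5 out of the score, which was chosen after the data were seen, gave the same 17 genes. Gnas had a Pearson r of 0.93 and a Spearman coefficient of 0.94 (both permutation p = 1e-05, the smallest these permutations can give), and Gng2 had r = 0.90 and a Spearman coefficient of 0.94. Rgs12, an Rgs protein with several other domains, had r = 0.85 and a Spearman coefficient of 0.91. Gng3 had r = 0.77, Gnb1 0.75, Rgs18 0.70, Gna14 0.69, Rgs4 and Rgs7 0.65 each, Gng13 0.59, Gnaz 0.55 and Gnao1 0.52.

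The 5 negative ones were Gnal at r = -0.73 and a Spearman coefficient of -0.70, Gng7 at -0.72 and -0.73, Rgs14 at -0.66, Rgs9 at -0.60 and Gnb5 at -0.53. In the 11 libraries of the 4-hundred series 22 genes passed, 13 of them shared with the 17 with the same sign, and with group means removed 15 passed, 14 of them shared, with 26.2% and 16.2% of all genes at the same unadjusted level. Without the 2 libraries farthest from the median score, H2O replicates 1 and 3, 21 passed, including all 17, with 21.7% of all genes. Gnas then had r = 0.93 and Gng2 0.92. The points are libraries in which the levels of many genes differ together, and the cause of this was not tested. The cortical score holds none of the 43 genes.

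**Figure D4:**
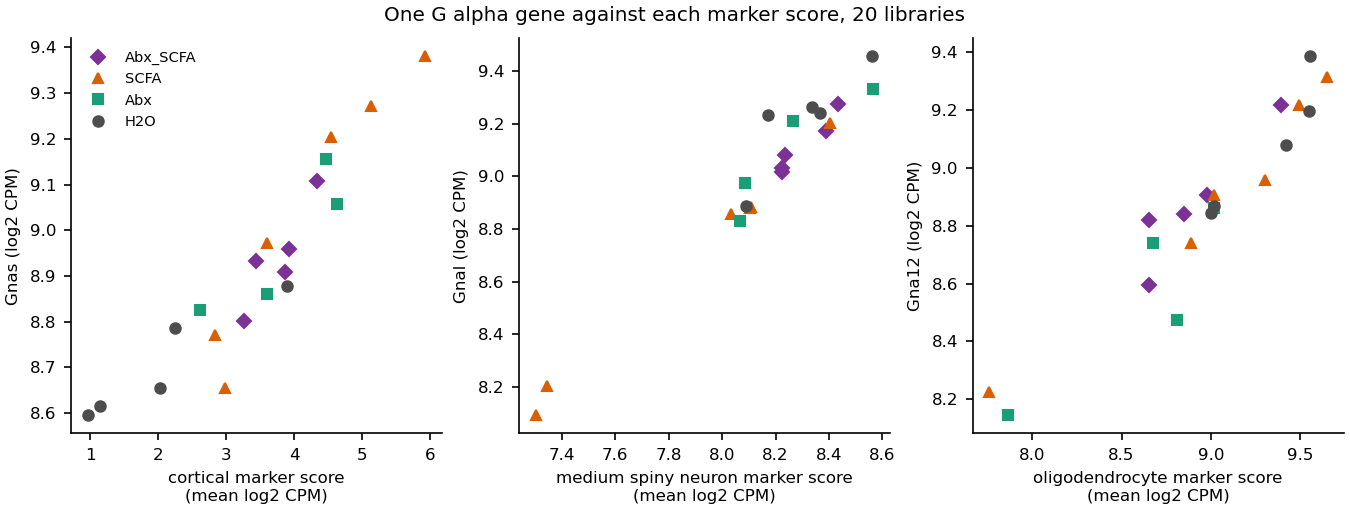
Log2 CPM of Gnas against the cortical score, of Gnal against the medium spiny neuron score and of Gna12 against the oligodendrocyte score, 1 point per library in the colours of Abx_SCFA, SCFA, Abx and H2O. Gnas climbs with the cortical score across all 4 groups (r = 0.93, 20 libraries), and Gnal and Gna12 climb with their scores (r = 0.91 each, over 18 libraries).

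The medium spiny and oligodendrocyte scores were read without the 2 libraries that stood apart in each, SCFA replicates 2 and 5, at 7.35 and 7.30, and SCFA replicate 5 and Abx replicate 3, at 7.76 and 7.87. Over the remaining 18 libraries, 8 genes correlated with the medium spiny score at an adjusted permutation p below 0.05, and 8.53% of 12832 genes tested reached the same unadjusted level. With adjustment over all genes tested 5 of the 43 passed, with 4.54% of all genes. Gnal had r = 0.91 and a Spearman coefficient of 0.89 (permutation p = 1e-05 for each), Gnb5 had r = 0.84 and a Spearman coefficient of 0.83, Gnb2 0.77 and 0.78, Rgs8 0.75 and 0.70, Rgs2 0.73 and 0.75, Gng7 0.63 and 0.64, and Rgs9 0.60 and 0.54. Gnai3, an inhibitory alpha subunit, was negative, at -0.60. In the 9 libraries of the 4-hundred series 5 genes passed, all 5 among the 8, and with group means removed 7 passed, 6 of them shared. The shares of all genes at the same unadjusted level were 1.53% and 5.66%, and in the 4-hundred series no gene of the table passed with adjustment over all genes. Gng7 and Rgs9 did not pass in either, at r of 0.59 and 0.58 and of 0.63 and 0.66.

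The oligodendrocyte score correlated with 4 genes over 18 libraries, Gna12 at r = 0.91 and a Spearman coefficient of 0.94, Rgs3 at 0.89 and 0.85, Gng8 at 0.85 and 0.76 and Gng12 at 0.84 and 0.86. The same unadjusted level was reached by 2.3% of 12836 genes tested, and all 4 passed with adjustment over all genes, with 4.9% of all genes. The same 4 passed in the 4-hundred series and with group means removed, where 2.8% and 1.91% of all genes reached the same unadjusted level. Adjusted over all 129 relations of 43 genes with 3 scores, 14, 8 and 4 genes passed, and 23 genes had at least 1 relation. The 20 genes with none included Gna11, Gna13, Gnaq, Gnai1, Gnai2, Gnao1 and Rgs5.

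**Figure D5:**
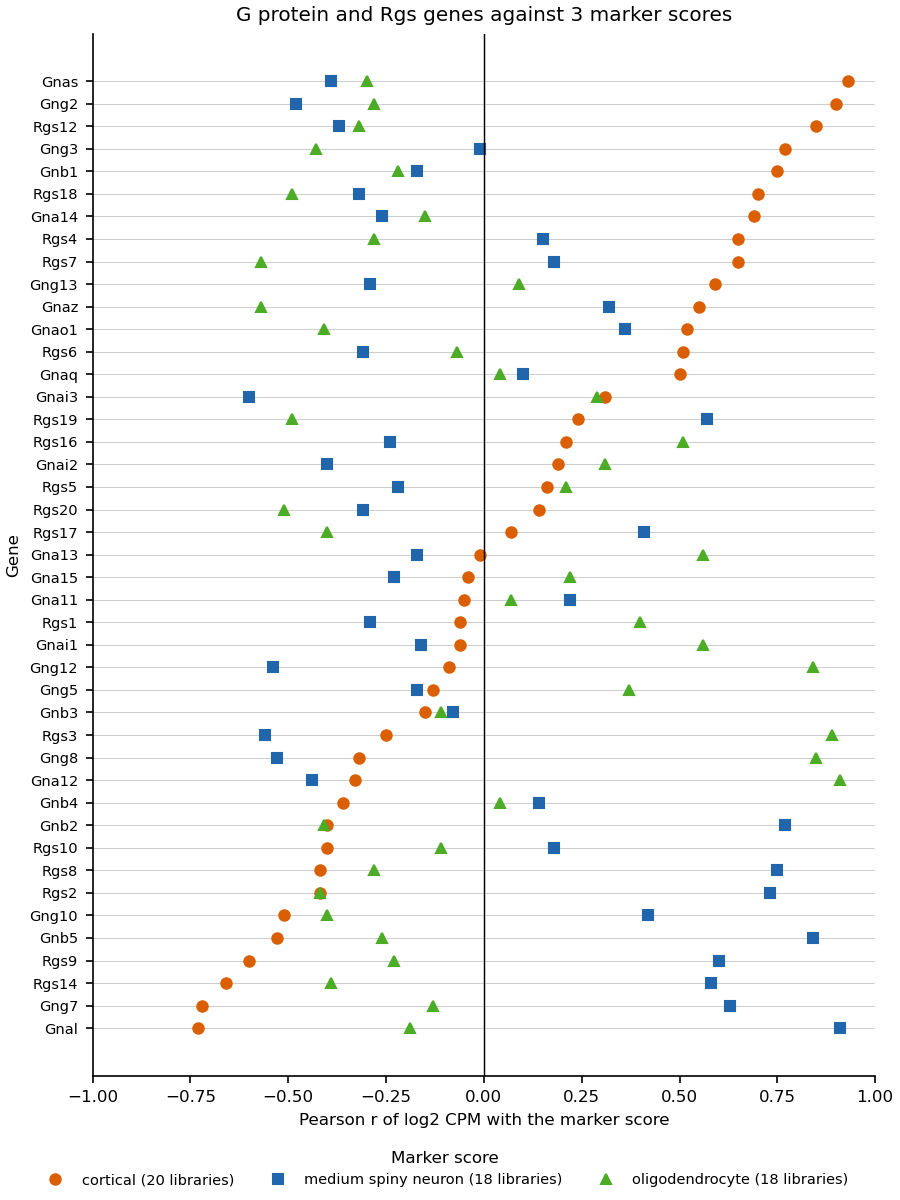
Pearson correlation of each gene's log2 CPM with the cortical (20 libraries), medium spiny neuron and oligodendrocyte marker scores (18 libraries each), with genes ordered by the cortical value. Gnas is at the top and Gnal at the bottom, and Gna12, Gng8, Rgs3 and Gng12 stand apart on the oligodendrocyte score.

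Subunits that bind each other, and the 2 stimulatory alpha subunits Gnal and Gnas, were compared as 7 pairs over the 18 libraries without SCFA replicates 2 and 5. The pairs were chosen after the data were seen and tested by permutation with Benjamini-Hochberg adjustment over the 7. Gnal correlated with Gng7, at r = 0.55 and a Spearman coefficient of 0.49 (permutation p = 0.016 and 0.039, adjusted p = 0.037), and with Gnb2, at r = 0.59 and a Spearman coefficient of 0.61 (permutation p = 0.011 and 0.0084, adjusted p = 0.037). Gnas correlated with Gnb1 at r = 0.67 and a Spearman coefficient of 0.65 (permutation p = 0.0029 and 0.0046, adjusted p = 0.02). Without the 2 libraries farthest from the median these 3 were 0.54, 0.47 and 0.58, and in the 4-hundred series 0.48, 0.87 and 0.72. Gnal and Gnas had r = -0.50 (permutation p = 0.035, adjusted p = 0.061). Gnb5 is the obligatory partner of the R7 class of Rgs proteins, and it had r = 0.36 with Rgs9 (adjusted permutation p = 0.2), 0.29 with Rgs7 (0.28) and -0.16 with Rgs6 (0.53). The 3 pairs that passed are each made of genes that also varied with the same marker score.

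Of 53 listed partners (among them adenylyl cyclases, phospholipase C beta, GIRK potassium channels, chaperones, receptor kinases and striatal receptors) 49 were tested, and 0 passed the adjusted threshold by edgeR in any contrast. At an unadjusted p below 0.05, 10 were higher and 6 lower in SCFA than in H2O, against 8.2% and 5.58% of all genes tested, and 4 were higher and 1 lower in Abx than in H2O, against 3.26% and 5.53%. In Abx_SCFA there was 1 higher and 1 lower relative to H2O, against 2.09% and 3.46% of all genes, and there were 2 higher and 0 lower relative to Abx, against 1.85% and 1.34%. Relative to SCFA 6 were higher and 2 lower, against 2.72% and 4.06%, and the interaction had 1 positive and 7 negative, against 2.83% and 5.01%. The 2 smallest p in SCFA vs H2O belonged to the GIRK subunit Kcnj6, at 2.52 ± 0.72 (SE), and to the cannabinoid receptor Cnr1, at 0.74 ± 0.22, with adjusted p of 0.247 by edgeR. In Abx vs H2O they belonged to the GIRK subunits Kcnj5, at -0.44 ± 0.17, and Kcnj6, at 1.86 ± 0.76 (adjusted p = 0.563 for both).

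In Abx_SCFA vs H2O, the receptor kinase Grk6 had 0.15 ± 0.065 and the glutamate receptor Grm5 -0.26 ± 0.12 (adjusted p = 0.815 for both). In Abx_SCFA vs Abx, the regulator Gpsm2 had 0.19 ± 0.080 and Kcnj5 0.39 ± 0.17 (adjusted p = 0.999 for both). In Abx_SCFA vs SCFA, the beta-gamma chaperone Pdcl had -0.20 ± 0.061 and the dopamine receptor Drd2 0.41 ± 0.17 (adjusted p = 0.732 for both). In the interaction, Kcnj6 had -2.98 ± 1.01 and the adenylyl cyclase Adcy8 -1.05 ± 0.37 (adjusted p = 0.622 for both). All these are log2 fold changes by edgeR, none of which passed the adjusted threshold, and the median over the 49 partners lay between -0.052 and 0.063 in the 6 contrasts.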

How the data were processed

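RNA was extracted with an RNeasy kit and cDNA made with a SMARTer kit, per the labels' protocols. Reads were handled with STAR 2.4.0 on Rnor_6.0, FastQC 0.11.6 and limma, per the submitters' processing notes. How reads were counted, with which annotation and strand, is not given in the sources used here, and reads of overlapping or antisense genes cannot be told apart. The authors deposited whole-number counts per gene symbol, not normalized, for 20 libraries. No 2 of the 190 library pairs agreed within sampling noise (chi-square per gene at least 6.74), and each counts as 1 rat.

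Groups came from the treatment labels. Replicate numbers only name libraries, and cage mates are not identified. Contrasts were tested two-sided with glmQLFTest of edgeR 4.0.16 under R 4.3.3 (robust, TMM scaling, 1 model of 4 groups, 16 residual degrees of freedom) on the 12846 genes kept by filterByExpr (minimum of 10 counts, 15 in total). Adjustment was by Benjamini-Hochberg over all of them. Scores are the mean log2 CPM of a marker list, with a prior count of 2 on log2 CPM. Alternatives were DESeq2 1.42.0, limma-voom (limma 3.58.1), other scaling, no filter and only the groups compared. Others were marker scores as covariates, libraries left out and a term that set the 3-hundred number series apart from the rest. That term held the 2-hundred and 4-hundred series together. It therefore does not adjust SCFA or Abx_SCFA for the 4-hundred series. The scripts were tested on simulated data.

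The genes, lists and tests were chosen with earlier results of these data known. Given with every library are the 3 genes of smallest p below 0.05 in each contrast and Gnal, Gnas, Gnb1, Gng7, Rgs9, Rgs2, Rgs4, Rgs5 and Rgs14. For SCFA the lowest, median and highest levels are given instead. Other genes are given by mean and SD or counts, and of the partners the 2 of smallest p per contrast. Floors from a count of 0 cover counting error only, since no molecular identifiers are described, while SEs and SDs include the variation between rats.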

Additional observations from a re-analysis of the deposited data

Results flagged for a closer look

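Of 172 checks of 43 genes in 4 groups, 15 found a library whose level lay far from the rest of its group by Dixon's test, and chance gives about 1 in 20. Of these values 3 belonged to SCFA replicate 5, with Gnaz at 58.7 CPM against 28.3 to 39.4 in the other SCFA libraries, Rgs6 at 37.8 against 17.4 to 21.1, and Gng10 at 91.8 against 112 to 121. Other SCFA libraries stood apart for Gnai3, with replicate 2 at 93.8 CPM against 71.9 to 79.0, and for Gnb5, with replicate 4 at 141 against 99.6 to 113.

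In Abx_SCFA, replicate 4 stood apart for 3 genes, with Gna14 at 2.05 CPM against 2.67 to 2.90, Gnaz at 46.2 against 36.2 to 38.3 and Rgs4 at 162 against 110 to 116. Gng5 in Abx_SCFA replicate 2 was at 18.4 CPM against 20.9 to 21.8. In Abx, Gnao1 in replicate 2 was at 452 CPM against 513 to 521, and Gng10 in replicate 4 was at 101 against 117 to 120. In H2O, replicate 5 was high for Gng2, at 140 CPM against 88.4 to 101, and for Rgs12, at 85.8 against 40.6 to 46.2. Rgs2 in H2O replicate 2 was at 135 CPM against 91.6 to 97.1, and Rgs5 in H2O replicate 1 was at 44.0 against 54.2 to 57.4. H2O replicate 5 was also the H2O library highest in cortical markers, with Slc17a7 at 252 CPM, and whether this bears on Gng2 and Rgs12 was not tested.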

How the results depend on the processing

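No gene passed the adjusted threshold in any fit that was run. Signs of fold changes were compared with the main fit only for genes at an unadjusted p below 0.05 in the contrast. In SCFA vs H2O they were also compared for Gnal, Gnas, Gnb1, Gng7, Rgs9, Rgs2, Rgs4, Rgs5 and Rgs14. Signs of the other genes and contrasts are not covered below. With the cortical score as a covariate, signs changed for Gnas in Abx vs H2O (-0.037), for Gnas (-0.028), Gng2 (-0.158), Gng3 (-0.070), Gna14 (-0.153), Rgs14 (0.055), Gnb1 (-0.15), Gng7 (0.116), Rgs9 (0.247) and Rgs4 (-0.252) in SCFA vs H2O, and for Gnas (0.0038) and Gng2 (0.083) in the interaction. With the medium spiny score as a covariate they changed in SCFA vs H2O for Gna14 (-0.122), Gnb1 (-0.023), Gng7 (0.018) and Rgs9 (0.126), and without SCFA replicates 2 and 5 for Gna14 (-0.017) and Rgs9 (0.023). Rgs5 in SCFA vs H2O ran from -0.0067 to 0.089 with single libraries left out. The covariates other than the cortical score, and leaving out Abx replicate 3 with SCFA replicate 5, were chosen after seeing the data.

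The number of genes at an unadjusted p below 0.05 moved as follows, and the cause was not tested. Over the same fits the share of all genes tested at that level ran from 2.33% to 18.1% in SCFA vs H2O, 2.8% to 12.5% in Abx vs H2O, 3.26% to 9.14% in Abx_SCFA vs H2O, 1.92% to 5.33% in Abx_SCFA vs Abx, 1.86% to 12% in Abx_SCFA vs SCFA and 2.32% to 11.1% in the interaction. In Abx vs H2O (6) it was 10 without SCFA replicates 2 and 5, 0 with the oligodendrocyte score, and 2 to 8 with single libraries left out. In SCFA vs H2O (7) it was 2 with the cortical score, 1 with the medium spiny score, 3 without SCFA replicates 2 and 5, and 4 to 15 with single libraries left out. In Abx_SCFA vs H2O (1) it was 2 with RLE scaling, DESeq2, no filter or without SCFA replicates 2 and 5. It was also 2 without Abx replicate 3 and SCFA replicate 5, and 4 with only the groups compared. It was 9 with the cortical score, 3 with the medium spiny score and 0 with the 3-hundred series term. With single libraries left out it was 0 to 4. In Abx_SCFA vs Abx (1) it was 2 with DESeq2, the cortical score, the 3-hundred series term or the medium spiny score. It was 0 without Abx replicate 3 and SCFA replicate 5, and 0 to 3 with single libraries left out. In Abx_SCFA vs SCFA (3) it was 1 without SCFA replicates 2 and 5, 0 with the medium spiny score, and 1 to 11 with single libraries left out. In the interaction (5) it was 3 with limma-voom or without Abx replicate 3 and SCFA replicate 5, 1 with the oligodendrocyte score, 0 with the cortical score, the medium spiny score or without SCFA replicates 2 and 5, and 1 to 11 with single libraries left out. The median fold change was -0.059 in SCFA vs H2O and -0.060 in Abx_SCFA vs H2O with the cortical score, and -0.018 in the interaction without Abx replicate 3 and SCFA replicate 5. The interaction was not run with only the groups compared, since it needs all 4. No paired analysis was possible because replicate numbers do not come from the labels.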

Other observations

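The log2 ratio of Gnal to Gnas counts, computed after the data were seen and given without a test, compares the olfactory-type and the common stimulatory alpha subunit within each library. It ran from 0.07 to 0.24 with a median of 0.17 in Abx_SCFA, from -1.29 to 0.55 with a median of -0.22 in SCFA, from -0.23 to 0.47 with a median of 0.10 in Abx, and from 0.01 to 0.67 with a median of 0.63 in H2O. The 5 Abx_SCFA libraries were close to each other (SD 0.06) and the 6 SCFA libraries far apart (SD 0.71). SCFA replicates 2 and 5, which stood apart in the medium spiny neuron score, were lowest at -1.07 and -1.29. The other SCFA libraries ran from -0.35 to 0.55.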
